A study of Mus musculus with 10 samples.

Results

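The 7 MHC class II genes described here are H2-Aa, H2-Ab1, H2-Eb1, Cd74, Ciita, H2-DMa and H2-DMb1, taken by name. They are 7 of the 28808 gene symbols counted over the 10 libraries of a mouse kidney cortex study, and each of them was found in the tables. The study sequenced single cells of normal and injured kidneys of mice aged 4 weeks by Drop-seq, in which the RNA of each cell is caught on a barcoded bead and its 3′ end is sequenced. The control and days 1, 2 and 4 after the injury are single libraries, while days 7, 11 and 14 have 2 libraries apiece. The labels give no genotype, strain, sex or kind of injury, and they do not say whether the 2 libraries of a day came from different animals. If they did not, the p-values below measure only the spread between technical samples.

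MHC class II molecules display peptides from engulfed proteins to CD4+ T cells. H2-Aa and H2-Ab1 encode the α and β chains of the I-A molecule and H2-Eb1 the β chain of I-E, Cd74 encodes the invariant chain that guards the peptide groove during transport, and H2-DMa and H2-DMb1 encode the chains of H2-M, which helps load the peptide. Ciita is the coactivator that switches the whole set on, either constitutively in dendritic cells and B cells or after interferon-γ in macrophages and in many epithelial and endothelial cells, proximal tubule cells among them.

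Of the members, 5 lie in the MHC on chromosome 17 in the GRCm38 build (GENCODE M21): H2-DMa (chr17:34119541-34139101, forward strand), H2-DMb1 (chr17:34153072-34160230, forward), H2-Ab1 (chr17:34257689-34269419, forward), H2-Aa (chr17:34282744-34287823, reverse) and H2-Eb1 (chr17:34305867-34316674, forward). Ciita lies at chr16:10480059-10528418 on the forward strand. Annotated genes overlap H2-Eb1, Ciita and H2-DMa on the opposite strand, and whether counting used strand is not given in the sources used here, so reads of these partners cannot be told apart from theirs. H2-DMa also overlaps CR974462.3, and Cd74 a microRNA gene, on the same strand, where counting by strand would not separate them. H2-DMb1 has a close copy, H2-DMb2, and reads that fit both make its values uncertain. The genes' promoters are known for a shared pair of short elements, the X box, bound by the RFX complex, and the Y box, bound by NF-Y, on which CIITA is recruited. The promoters of H2-Aa, H2-Eb1 and H2-DMb1 are shown because these were the members whose windows held this arrangement. Each is taken from the RefSeq promoter windows of build GRCm38.p6, from 250 bases before to 50 after the start of the gene, and is written 5′ to 3′ on the strand of the gene, with capitals marking CTNGNAAC (within the X box) and GATTGG (the core of the Y box). H2-Aa is at chr17:34287847-34287927 (reverse strand), H2-Eb1 at chr17:34305753-34305832 (forward) and H2-DMb1, of which 30 bases around the first element are printed, at chr17:34153093-34153122 (forward).
H2-Aa: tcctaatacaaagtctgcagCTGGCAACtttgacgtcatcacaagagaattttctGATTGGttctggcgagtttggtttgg
H2-Eb1: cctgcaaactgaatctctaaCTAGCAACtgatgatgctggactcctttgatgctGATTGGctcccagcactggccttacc
H2-DMb1: cCTAGTAACtgatgatgctaggctgattca
The second element began 27 bases after the end of the first in H2-Aa and H2-DMb1 and 26 bases after it in H2-Eb1. These letters were searched for on both strands after the windows had been read, so the matches are a description. Of 32851 promoter windows, 13.2% held CTNGNAAC, 16.1% held GATTGG, and 0.219% held both in this order on 1 strand within 60 bases. Neither of the 2 windows of H2-DMa held the pair. H2-Ab1, Cd74 and Ciita were not looked at in sequence.

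The tables held 64803 barcodes, of which 52797 passed as cells, from 3568 to 6941 a library with medians of 1244 to 2662 unique molecular identifiers (UMIs). Cells were assigned to a class by raw UMIs of marker panels that hold no class II gene: 4563 immune cells (12 markers such as Ptprc, Tyrobp and Cd52), 1635 endothelial cells (14, such as Pecam1, Kdr and Emcn) and 37452 tubular cells (24, such as Lrp2, Slc12a1 and Aqp2). All 12, 14 and 24 markers of a class were found in its cells in each library. Immune cells made up 1.34% of the control, 12.9% on day 4, 26.4% and 36.2% on day 7 and 1.01% in replicate 1 of day 14. Levels are in CPM, the UMIs of a gene in a class, divided by all UMIs of that class in that library and scaled to one common total. Changes between groups were tested on the summed counts with edgeR's quasi-likelihood test, adjusted over all genes by Benjamini-Hochberg at 0.05. The control is a single library, and its spread is assumed to be that of the replicated days. Libraries shared few barcodes: 62 were in more than 1 library, and no pair shared more than 4.

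Over all cells, the class II transcripts rose to day 7 and fell by day 14. Cd74 stood at 25.1 CPM before injury and at 84.0, 166 and 505 on days 1, 2 and 4, at 1232 and 1996 on day 7, at 301 and 217 on day 11 and at 41.4 and 28.7 on day 14. Both day 7 libraries were above every other library, and both day 14 libraries were just above the control. From control to day 7, 7 of the 7 genes rose, with a median log2 change of 5.07, where 17.8% of all 17495 genes tested rose. At its control level of 0.41 CPM Ciita would not have passed the filter on low counts, so its call is no support. From day 7 to day 14, 7 of 7 fell, with a median log2 change of -4.16, where 24.7% of all genes fell. For Ciita the filter favours this fall too, so that call is no support. All 7 were called in both comparisons with no filter as well. On day 14, 3 of 7 were still above the control, where 4.72% of all genes were higher: H2-Ab1 (log2 change 1.48 ± 0.33 SE), H2-DMa (1.89 ± 0.37) and H2-DMb1 (1.5 ± 0.32). The first and the third of these calls were lost without replicate 1 of day 14, with adjusted p = 0.0931 and 0.0570 in edgeR, and the third also with the mitochondrial limit at 25% (0.0531). These sums mix cell types whose proportions shifted, so the classes are given one by one below.

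The class that held most of the class II UMIs changed with the day. Immune cells held 67.7% of them in the control, 57% and 77.7% on day 7 and 74.9% and 70.6% on day 11. On day 4 they held 26.9%, and tubular cells held 58.3%. Day 14 differed between its libraries: tubular cells held 52.9% in replicate 1 and 18.9% in replicate 2. Endothelial cells held at most 0.484% in any library, and cells that passed no gate held 6.52% to 31.9%.

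**Figure D1:**
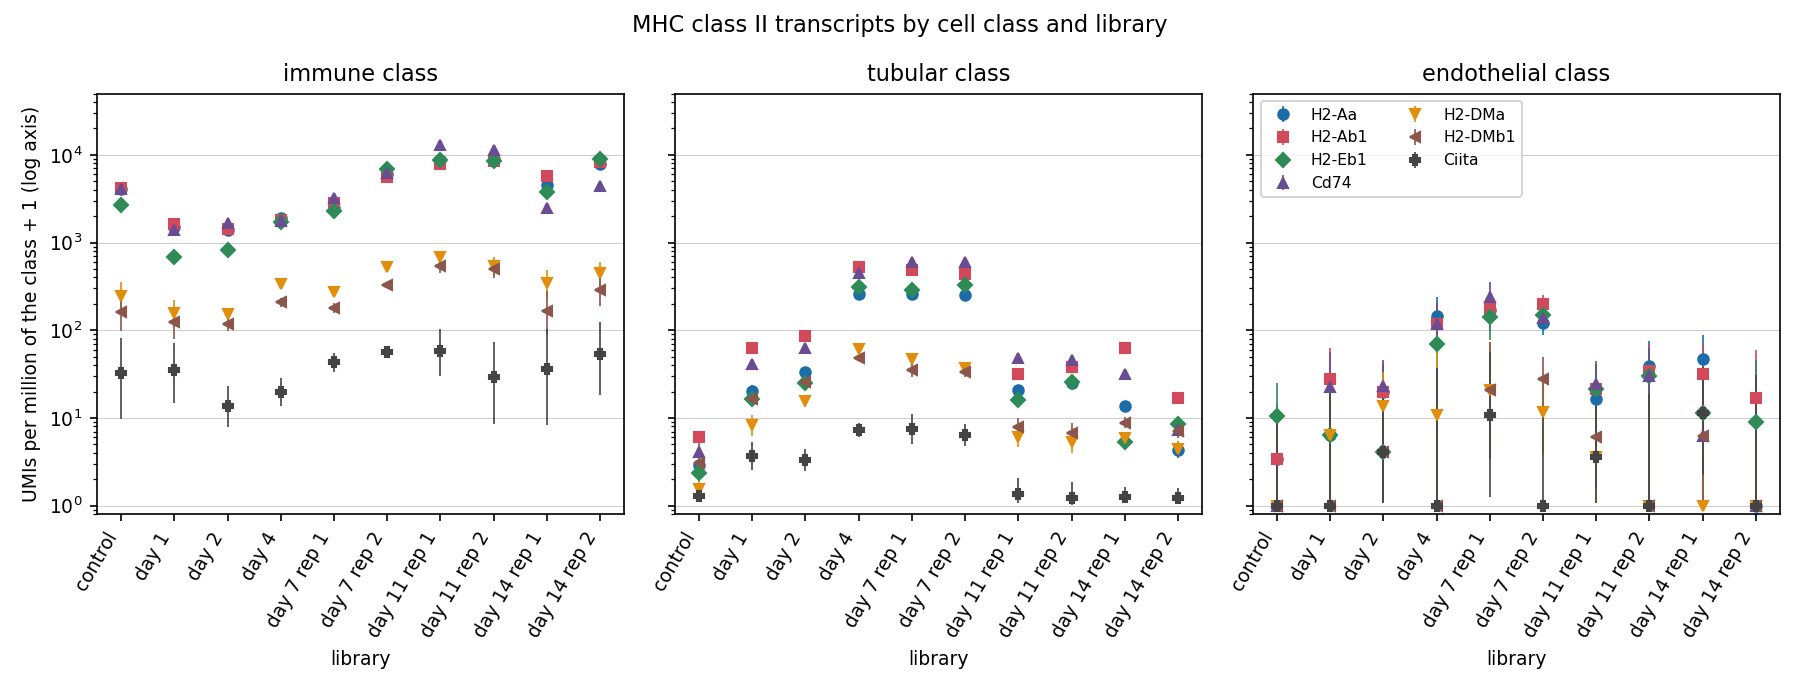
Level of each class II gene (CPM of the class, plus 1, log axis) in the immune, tubular and endothelial class of each library, with exact 95% Poisson intervals for counting error. Tubular points stand highest on days 4 and 7, where Cd74 reached 447 to 595 CPM against 3.14 in the control. Immune points dip on days 1 and 2, except Ciita on day 1.

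In tubular cells all 7 genes were almost silent in the control, were higher on days 1 and 2 and stood highest on days 4 and 7. The invariant chain Cd74 was at 3.14 CPM in the control (67 UMIs, 95% Poisson interval 2.43 to 3.99), 40.2 on day 1, 61.2 on day 2, 447 on day 4, 595 and 593 on day 7, 47.1 and 44.5 on day 11, then 31.1 and 6.34 on day 14. Both day 7 libraries were highest and day 4 was next. Days 2, 11 and 1 followed close to each other, and the day 14 libraries spanned a wide range above the control. The I-A β chain H2-Ab1 ran from 5.01 CPM in the control through 62.4, 85.4 and 529 on days 1, 2 and 4 to 485 and 434 on day 7, then to 31.0 and 36.9 on day 11 and to 61.0 and 15.8 on day 14. Its highest library was day 4, and its 2 day 14 libraries enclosed both day 11 libraries.

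The I-A α chain H2-Aa was at 1.87 CPM in the control, 19.1, 32.2 and 258 on days 1, 2 and 4, 261 and 253 on day 7, 19.7 and 23.8 on day 11, then 12.6 and 3.29 on day 14. The I-E β chain H2-Eb1 was at 1.36, 15.6, 24.0 and 313 CPM in the same first 4 libraries, at 288 and 330 on day 7, 14.8 and 24.4 on day 11, then 4.30 and 7.51 on day 14. In both genes day 4 lay within the range of the 2 day 7 libraries, and day 14 was the lowest of the injured days. The coactivator Ciita was read by far fewer UMIs: 6 in the control (0.28 CPM), 16, 23 and 97 on days 1, 2 and 4 (2.68, 2.32 and 6.27 CPM), 20 and 36 on day 7 (6.53 and 5.42 CPM), then 0.37 and 0.24 CPM on day 11 and 0.27 and 0.23 CPM on day 14. It stood at its day 4 level on day 7 and at its control level on days 11 and 14. Of the H2-M chains, H2-DMa rose from 0.56 CPM in the control to 60.2 on day 4 and was at 45.7 and 35.7 on day 7 and at 4.88 and 3.46 on day 14. H2-DMb1 rose from 2.06 to 47.4 CPM on day 4 and was at 34.3 and 32.2 on day 7 and at 7.80 and 6.04 on day 14. Both were above all other libraries on day 4.

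From control to day 7, 7 of 7 class II genes rose in tubular cells, where 18.2% of the 15627 genes tested rose. Ciita passed the filter on low counts only through injured days up to day 7, where it is high, so its call is no support. H2-DMa would not have passed it at its control level, so its call is no support either. With no filter on low counts 7 of 7 were called too. The log2 changes were 6.93 ± 0.50 (SE) for H2-Eb1, 6.67 ± 0.90 for Cd74, 6.20 ± 0.73 for H2-Aa, 5.62 ± 0.77 for H2-Ab1, 5.25 ± 0.38 for H2-DMa, 3.46 ± 0.56 for Ciita and 3.11 ± 0.29 for H2-DMb1. The largest adjusted p of the 7 was 0.00112, for Ciita, by edgeR's test. The classical chains and Cd74 thus changed more than Ciita and H2-DMb1, although the differences between genes were not tested. As a ratio of mean CPM, day 7 was 189-fold the control for Cd74, 227-fold for H2-Eb1 and 16.1-fold for H2-DMb1. The median over all genes was 0.05 with TMM scaling and 0.93 with plain library totals, and the share of called genes that were higher went from 48.0% to 88.6%. The 7 genes were higher under both.

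From day 7 to day 14, 7 of 7 fell in tubular cells, where 23.6% of all genes fell. The filter favours this comparison for Ciita as well, so its call is no support here either. With no filter 7 of 7 were called too. H2-Eb1 fell by 4.91 on the log2 scale (SE 0.32), H2-Aa by 4.18 (0.47), Cd74 by 4.16 (0.57), Ciita by 3.70 (0.45), H2-Ab1 by 2.75 (0.48), H2-DMa by 2.45 (0.23) and H2-DMb1 by 1.45 (0.20). On day 14, 4 of 7 remained above the control, where 2.46% of all genes were higher. These were H2-Ab1 (log2 change 2.87 ± 0.68, adjusted p = 0.0419), H2-DMa (2.80 ± 0.40, adjusted p = 0.0100), H2-Eb1 (2.02 ± 0.46, adjusted p = 0.0376) and H2-DMb1 (1.67 ± 0.28, adjusted p = 0.0149) in edgeR. At its control level H2-DMa would not have passed the filter on low counts, so its call above the control is no support. H2-Aa and Cd74 had log2 values of 2.01 ± 0.66 and 2.51 ± 0.76 and missed the threshold, and Ciita had -0.24 ± 0.68. The H2-Ab1 call was lost without either day 11 library (adjusted p = 0.0632 and 0.0626) and the H2-Eb1 call without replicate 2 of day 14 (0.145), which brought H2-Aa and Cd74 past the threshold (0.00769 and 0.00278). Without replicate 1 of day 14 the log2 changes were 1.62 for H2-Ab1 and 0.98 for Cd74.

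**Figure D2:**
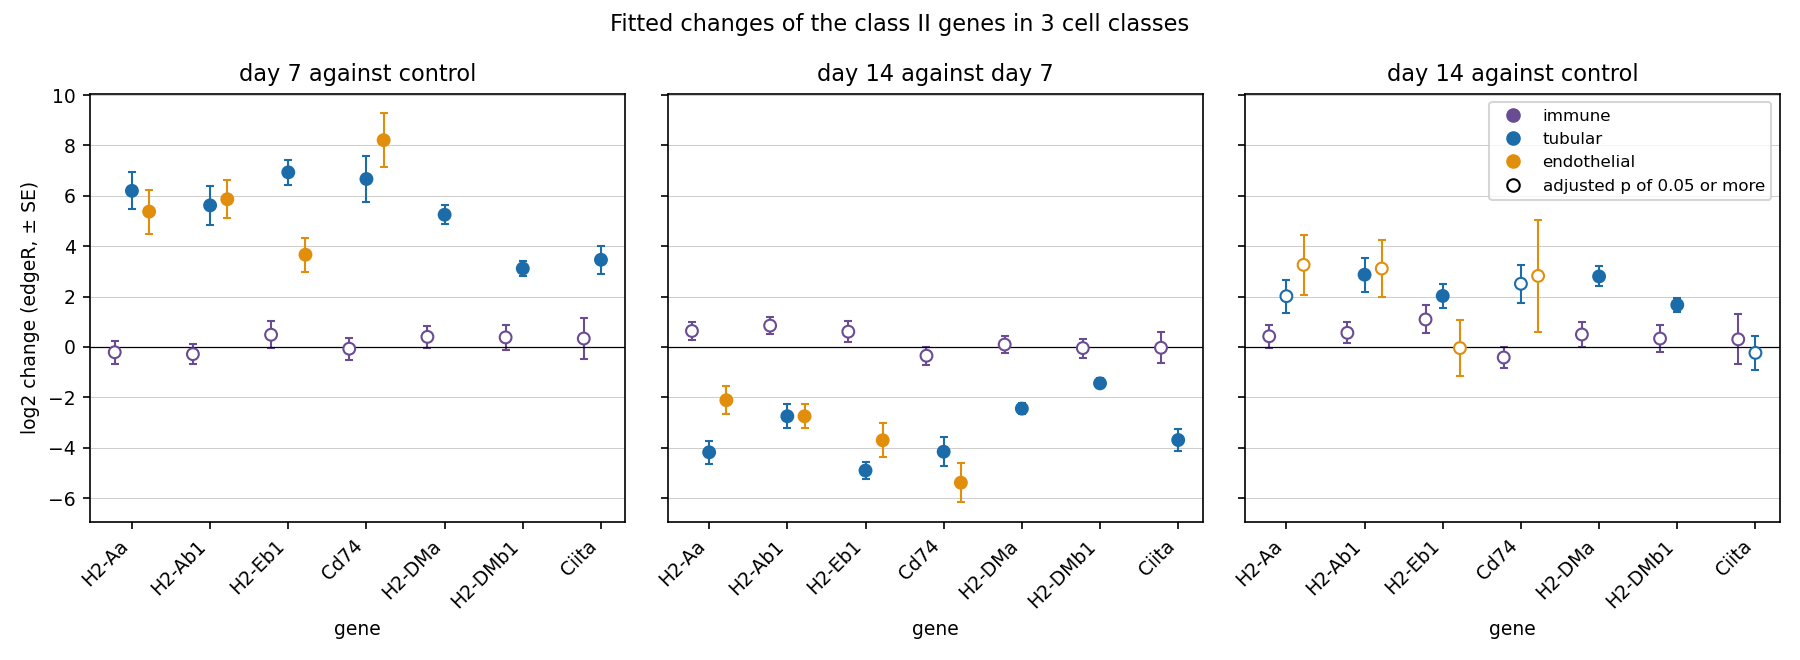
Fitted log2 change (edgeR, ± SE) of each class II gene in immune, tubular and endothelial cells for day 7 against control, day 14 against day 7 and day 14 against control. Filled points passed an adjusted p of 0.05; the 7 tubular genes lie between 3.11 and 6.93 in the first comparison, and the immune points, none of which passed, lie between -0.42 and 1.09 over all 3.

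The tubular values were set beside 4 transcripts of macrophages and monocytes that the gates of the 3 classes did not use, C1qa, C1qb, C1qc and Lyz2. In tubular cells these summed to 0.47 CPM in the control, 36.2, 31.3 and 112 on days 1, 2 and 4, 713 and 183 on day 7, 32.1 and 39.5 on day 11, then 1.06 and 2.11 on day 14. They too were highest on day 7 and low on day 14. In each library the tubular cells held more class II UMIs per macrophage UMI than the immune cells did: 14.8 against 0.40 on day 4, 2.40 against 0.49 and 9.18 against 0.99 on day 7, and 115 against 3.26 and 20.2 against 3.62 on day 14. This excess was not particular to tubular cells. Endothelial cells had 2.04 on day 4 and 0.80 and 1.53 on day 7. Podocytes had 0 class II UMIs on day 4, in 5 cells with 4 macrophage UMIs, which is too few for a ratio. On day 7 their ratios were 0.5 and 1, close to the immune cells, on 14 class II UMIs in 13 and 14 in 30 cells. Mesenchymal cells had 1.71 on day 4 (12 class II UMIs in 21 cells) and 0.80 and 0.74 on day 7. On day 11 podocytes had 4.125 and 6, against 3.89 and 3.54 in tubular cells and 2.08 and 1.68 in immune cells. The 2 libraries of day 7 were far apart in macrophage transcripts in tubular cells, at 713 and 183 CPM, and close in summed class II, at 1715 and 1683 CPM. In tubular cells with 0 macrophage UMIs, the summed class II level was 1664 CPM on day 4, against 1661 in all tubular cells, and 1637 and 1494 CPM on day 7, against 1715 and 1683. The tests repeated in those cells called 7, 7 and 4 members in the 3 comparisons, as in all tubular cells.

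**Figure D3:**
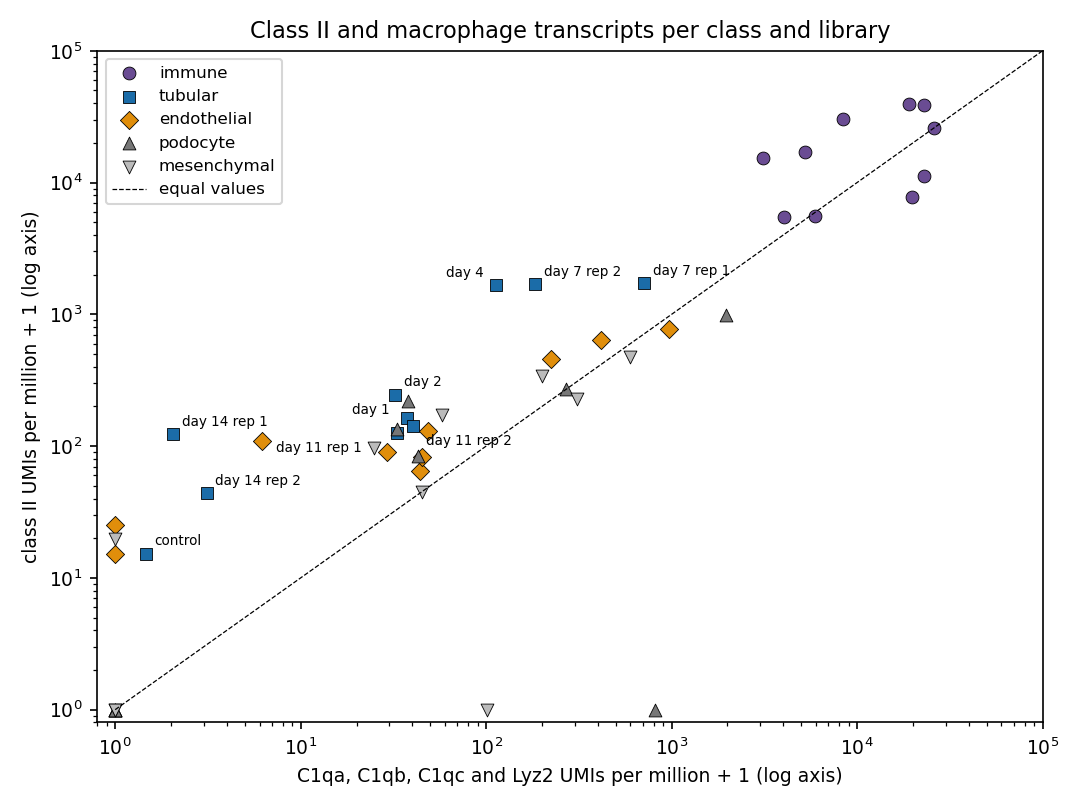
Summed class II transcripts against the summed macrophage transcripts C1qa, C1qb, C1qc and Lyz2, each as CPM plus 1 on log axes, with 1 point per class and library and the tubular points named. Tubular points of days 4 and 7 lie above the line of equal values, at 1661 to 1715 CPM of class II for 112 to 713 CPM of macrophage transcripts, and immune points lie around the line.

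Class II transcripts were spread over many tubular cells. When each cell was thinned to 500 UMIs, so that depth was equal and no cell was left out, 0.794% of control tubular cells held a class II UMI (39 of 4910; exact 95% Clopper-Pearson interval 0.565% to 1.08%). It reached 7.02% on day 1, 9.14% on day 2, 42.6% on day 4 (interval 41.1% to 44.1%), 47.2% and 38.8% on day 7 (44.6% to 49.8% and 36.6% to 40.9%), 6.01% and 6.67% on day 11 and 5.93% and 2.07% on day 14. Without thinning it was 3.46% in the control, 70.7% on day 4 and 70.4% and 64.4% on day 7. The level was not carried by the top cells alone, yet it was uneven: 26.4% of tubular cells on day 4 and 21.7% and 24.8% on day 7 had at least 5 class II UMIs, against 0.204% in the control, and the top 10% of cells held 51.8% to 63.1% of the class II UMIs of those libraries. Podocytes and mesenchymal cells, which are not professional antigen-presenting cells, served as the reference for free RNA. Whether they make class II transcripts themselves in these kidneys was not tested. Their pooled share was 0 of 68 cells in the control (exact upper bound 5.28%) and 11.5% on day 4 (3 of 26, 2.45% to 30.2%). On day 7 it was 29% (9 of 31, 14.2% to 48.0%) and 9.88% (8 of 81, 4.36% to 18.5%). Tubular cells were above these intervals on day 4 and in replicate 2 of day 7, while in replicate 1 of day 7 the share of 47.2% lay inside the upper end of the reference interval. On day 1 the tubular share lay inside the reference interval of 0.700% to 19.2%. On day 11 the tubular shares lay inside those of 2.85% to 9.33% and 6.08% to 16.9%. On day 14 the reference had 0 of 34 and 0 of 17 cells (exact upper bounds 10.3% and 19.5%). At this depth of the reference, the tubular shares of days 1, 11 and 14 could not be told apart from those of the reference, and the calls of day 14 above the control rest on levels with such shares. On day 2 the reference had 0 of 40 cells (exact upper bound 8.81%), which lies inside the tubular interval of 8.07% to 10.3%. A limit of 3 cells in 40, or 7.5%, lies below that interval, so the reading of day 2 depends on the bound. Median depths on day 4 were 1917 UMIs in tubular cells, 872 in podocytes and 1703 in mesenchymal cells. Intervals and floors cover counting error only.

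**Figure D4:**
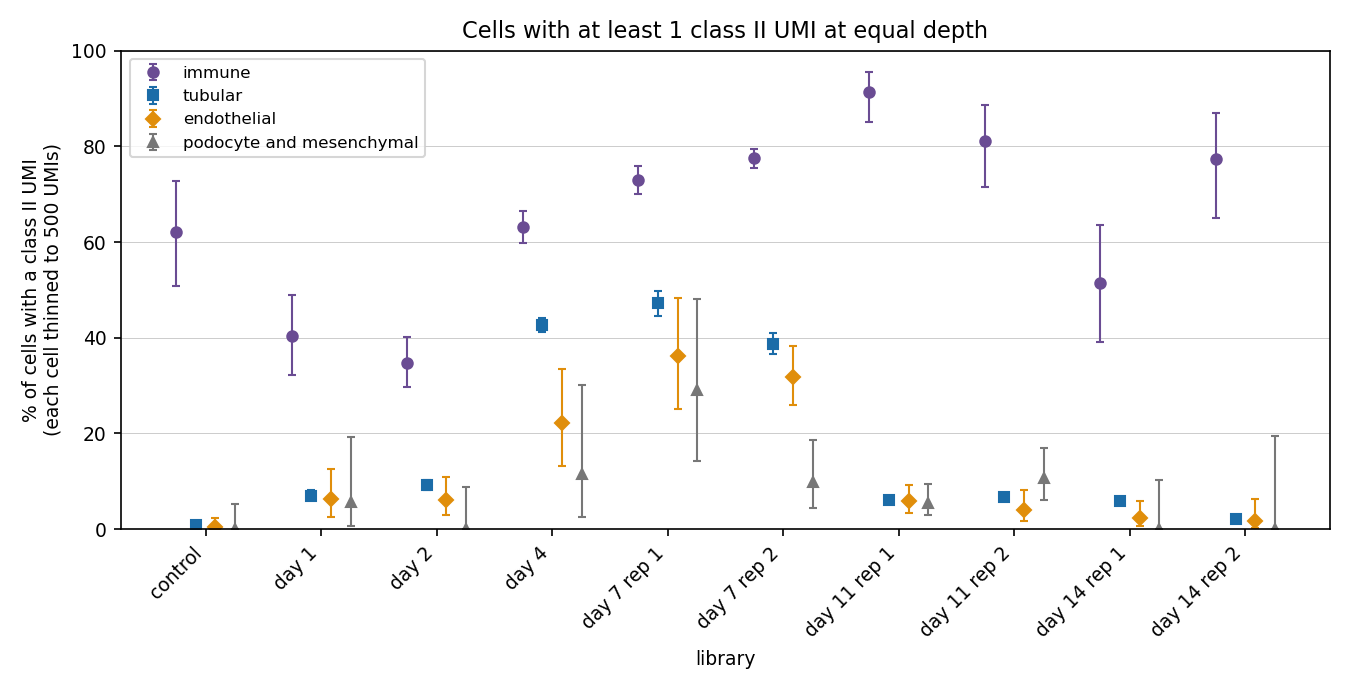
Share of cells with at least 1 UMI of the 7 class II genes after thinning each cell to 500 UMIs, by class and library, with exact 95% intervals. Tubular cells go from 0.794% in the control to 42.6% on day 4 and back to 5.93% and 2.07% on day 14, and the grey triangles show podocytes with mesenchymal cells as the reference.

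Among tubular segments, proximal cells held the most class II transcript. Summed over the 7 genes, proximal cells were at 16.2 CPM in the control, 262, 306 and 1978 on days 1, 2 and 4, 3480 and 3202 on day 7, 141 and 150 on day 11, then 146 and 47.1 on day 14. Cells of the thick limb were at 10.4 CPM in the control, 440 on day 4, 548 and 429 on day 7, then 24.7 and 10.2 on day 14. Collecting duct cells reached 379 CPM on day 4 and 538 and 347 on day 7, and cells of the distal convoluted tubule 194 on day 4 and 175 and 136 on day 7. Proximal cells were above each of the other 3 segments in 10 of 10 libraries, by 1.45-fold to 23.5-fold. At equal depth, 75.0% and 57.9% of proximal cells held a class II UMI on day 7, against 32.7% and 22.1% in the thick limb, 24.1% and 18.8% in the collecting duct and 10.5% and 9.62% in the distal convoluted tubule. The macrophage transcripts on day 7 were at 630 and 149 CPM in proximal cells, 708 and 181 in the thick limb, 544 and 179 in the collecting duct and 409 and 114 in the distal convoluted tubule. Proximal cells were above the distal convoluted tubule in these transcripts in 8 of 10 libraries, by up to 2.31-fold, above the collecting duct in 5 of 10 and above the thick limb in 4 of 10. At equal depth proximal cells were above the collecting duct in 8 of 10 libraries. Only 324 and 470 proximal cells were found on day 7 against 3531 in the control, and 601 and 651 tubular cells of day 7 had no segment, with 2148 and 2464 CPM. The names of segments were rebuilt from markers.

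Tubular cells with a UMI of Havcr1 or Vcam1, which encode the injury marker KIM-1 and an adhesion molecule, held more class II transcript than those without. They were at 2078 CPM against 767 on day 4, 2853 against 682 and 3355 against 439 on day 7, 469 against 118 and 511 against 135 on day 11 and 239 against 119 and 267 against 38.1 on day 14. The control was the exception among the 10 libraries, with 11.2 CPM (6 UMIs) against 14.4. At equal depth the shares were 50.1% against 29.5% on day 4 and 66.7% against 31.9% and 64.7% against 22.2% on day 7. On day 11 they were 15.5% against 5.399% and 19.6% against 6.53%, with 58 and 46 cells that had such a UMI. The macrophage transcripts were lower in the cells with a Havcr1 or Vcam1 UMI on day 7, at 659 against 762 CPM and 178 against 187. Because the split uses detected UMIs, cells with one are deeper, at a median of 2159 against 1680 UMIs on day 4. No test was run between segments or between these groups.

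In immune cells the class II genes were high in every library and none of the 7 passed the test between groups. H2-Aa was at 4069 CPM in the control, 1496, 1371 and 1897 on days 1, 2 and 4, 2491 and 6074 on day 7, 8811 and 8985 on day 11, then 4469 and 7834 on day 14. Cd74 was at 4061 CPM in the control, 1374, 1687 and 1779 on days 1, 2 and 4, 3175 and 6265 on day 7, 12903 and 11394 on day 11, then 2470 and 4377 on day 14. In both genes the first days were below the control and day 11 was the highest group, and the 2 libraries of day 7 lay on either side of the control. On day 4 H2-DMa and H2-DMb1 were above the control, at 337 against 247 CPM and 206 against 159. Both were below it on days 1 and 2. Ciita was at 34.3 CPM on day 1 against 31.8 in the control. H2-Ab1 ranged from 1433 CPM on day 2 to 8523 on day 11 and H2-Eb1 from 687 on day 1 to 9040 on day 14, with the same low days 1 and 2. Ciita stayed between 12.8 and 57.6 CPM on 3 to 210 UMIs a library. From control to day 7, 0 of 7 genes passed, where 4.73% of 5178 genes were called in either direction, and the log2 values ran from -0.29 ± 0.41 (H2-Ab1) to 0.48 ± 0.54 (H2-Eb1). From day 7 to day 14, 0 of 7 passed, where 4.17% of all genes did, and without replicate 2 of day 7 edgeR called 3: H2-Eb1 (log2 change 1.66), H2-Ab1 (1.47) and H2-Aa (1.45). From control to day 14, 0 of 7 passed, where 0.463% did. These counts of 0 are near the shares of all genes. At an unadjusted p under 0.05, edgeR called 901, 795 and 616 of all genes in these 3 comparisons, with H2-Ab1 the only member among them, from day 7 to day 14, and DESeq2 called none of the members. The immune sums rest on 62 to 1864 cells. In simulated immune sums the day 7 against control test recovered 11% of 2-fold and 81% of 8-fold changes. A lack of calls here thus does not show that the genes were unchanged.

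The immune class is a mixture whose make-up moved with the day, and its types were told apart by markers that hold no class II gene. Cells with C1q transcripts, called C1q macrophages here, made up 46.3% of the immune class in the control, 9.93%, 20.5% and 39.9% on days 1, 2 and 4 and 65.0% and 63.0% on day 7. Monocyte-gated cells (markers such as Ly6c2, Plac8 and Ccr2) made up 1.22% in the control. On days 1, 2 and 4 they made up 30.5%, 53.8% and 36.8%. Cells that passed both the C1q and the monocyte gate were counted as C1q macrophages. Within the C1q macrophages the summed class II level was 30997 CPM in the control (38 cells), 1798 on day 1 (14 cells), 4770 on day 2 (70 cells), 5827 on day 4 (331 cells), 10568 and 28871 on day 7, 39861 and 42398 on day 11, then 36624 and 38595 on day 14. The summed level was low on days 1, 2 and 4 in this type and in the class as a whole, and days 11 and 14 were at or above the control. Because the type takes in cells that also passed the monocyte gate, its own make-up is not fixed. The part of make-up in these levels was not tested. At equal depth 100% of the 38 control C1q macrophages held a class II UMI, against 28.6% on day 1, 61.4% on day 2, 63.7% on day 4, 74.9% and 86.5% on day 7, 98.7% and 96.2% on day 11, then 100% and 91.7% on day 14. Monocyte-gated cells went from 5820 CPM on day 1 to 6051 and 10289 on days 2 and 4 and to 20508 and 35070 on day 7.

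T or NK cells are a reference within the immune class, because mouse T cells normally lack class II. They were at 142 CPM in the control (3 UMIs), 705 on day 4, 1027 and 1205 on day 7 and 0 on day 14 (0 UMIs in 23 and in 4 cells). C1q macrophages were above them in 10 of 10 libraries, by 8.27-fold or more where the latter had any UMI. The few dendritic cells, 1 to 6 in each of the 4 libraries that had any, were at 18315 to 51552 CPM, and the B cells, at most 5 a library, at 2966 to 29836 CPM. These types were rebuilt from markers and were not tested.

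**Figure D5:**
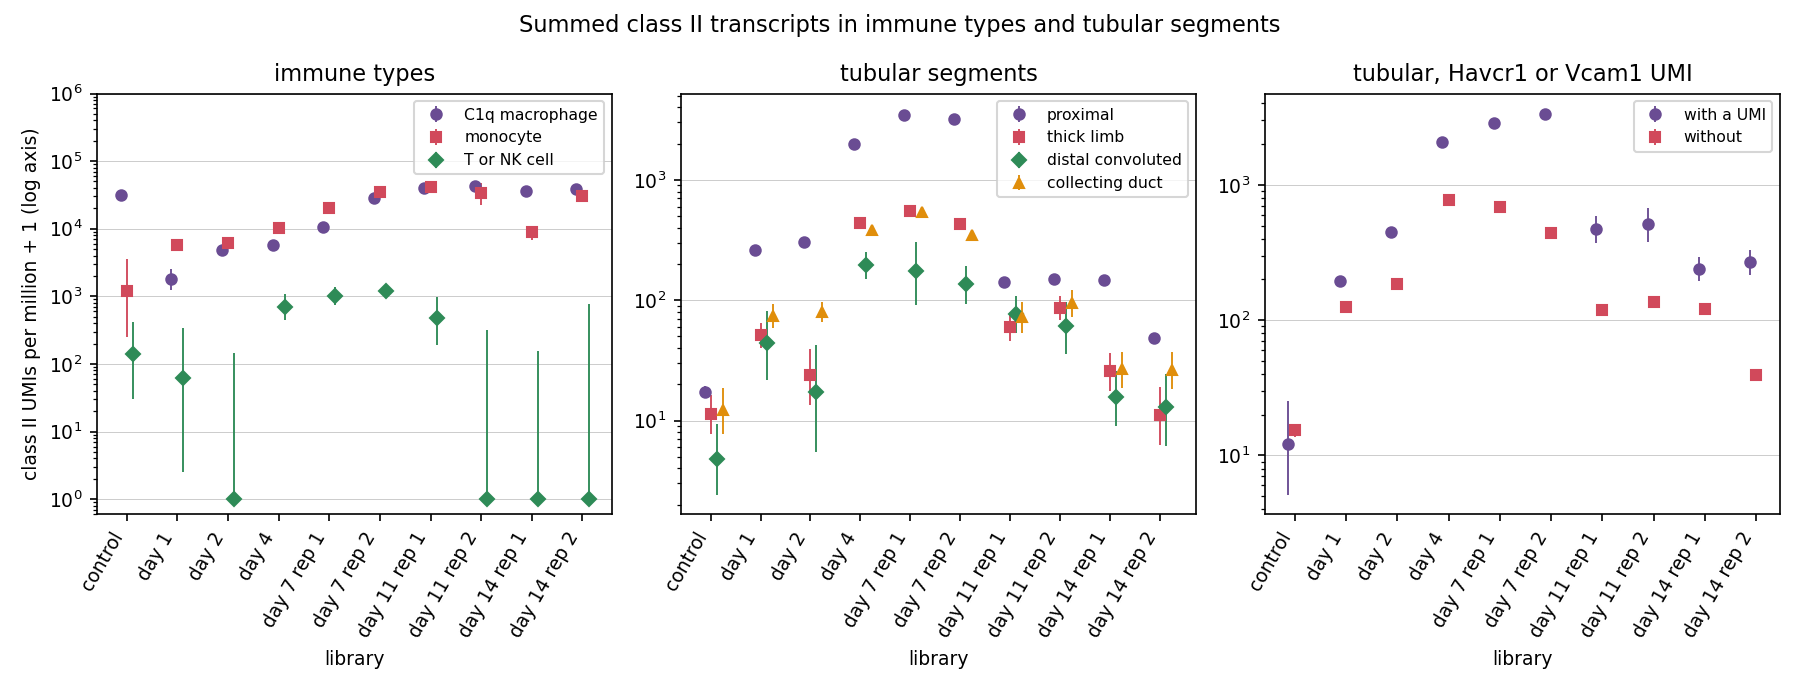
Summed class II transcripts (CPM plus 1, log axes) in immune types, in tubular segments and in tubular cells with or without a Havcr1 or Vcam1 UMI, by library, with exact 95% Poisson intervals. C1q macrophages go from 30997 CPM in the control to 1798 on day 1 and 42398 on day 11, and proximal cells reach 3480 and 3202 CPM on day 7.

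Endothelial cells of the mouse kidney held few class II UMIs, 6 over all 7 genes in the 238 cells of the control. H2-Ab1 had 1 UMI in the control (2.37 CPM), 5, 6 and 12 on days 1, 2 and 4 (26.7, 18.9 and 116 CPM), 18 and 74 on day 7 (179 and 197 CPM), 8 and 7 on day 11 (20.5 and 33.5 CPM) and 6 and 2 on day 14 (30.9 and 16.0 CPM). Cd74 had 0 UMIs in the control and 24 and 51 on day 7 (239 and 136 CPM), at least 19.4-fold higher than the control when 3 counts are allowed there. Days 4 and 7 were above all other libraries for H2-Aa, H2-Ab1, H2-Eb1 and Cd74. Only these 4 members passed the filter on low counts, and they did so through days 4 and 7, where they are high, so the number of them called says nothing about the gene set. Each of the 4 rose from control to day 7, where 1.63% of 6135 genes did. The log2 changes were 5.37 ± 0.87 for H2-Aa, 5.87 ± 0.75 for H2-Ab1 and 3.66 ± 0.67 for H2-Eb1, and that of Cd74 has the bound above. H2-Aa, H2-Ab1 and H2-Eb1 had 1, 1 and 4 UMIs in the control, so the size of their changes is poorly known. Each of the 4 fell from day 7 to day 14, where 2.12% of all genes did, a comparison that the same filter favours. With no filter on low counts 4 of the 7 members were called in each of these comparisons. On day 14 0 of 4 differed from the control, where 2.93% did; an unadjusted p under 0.05 was reached by 2 of the 4, and DESeq2 called none. With DESeq2 in place of edgeR 1 of 4 passed in each of the first 2 comparisons. The H2-Aa call from day 7 to day 14 was lost without replicate 1 of day 7 (adjusted p = 0.0548), replicate 2 of day 7 (0.0759) and replicate 2 of day 14 (0.292), and in cells with 0 macrophage UMIs (log2 value -1.50, adjusted p = 0.389). In cells with 0 UMIs of other panels none of the 4 falls passed, with adjusted p from 0.0504 to 0.886.

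The macrophage transcripts moved with this rise: in endothelial cells they were at 0 in the control, at 223 CPM on day 4 and at 964 and 416 CPM on day 7. Endothelial cells held 0.80 and 1.53 class II UMIs per macrophage UMI on day 7, against 0.49 and 0.99 in immune cells, 0.5 and 1 in podocytes and 0.80 and 0.74 in mesenchymal cells of the same libraries. At equal depth 22.2% of endothelial cells held a class II UMI on day 4 and 36.1% and 31.9% on day 7 (95% intervals 25.1% to 48.3% and 25.9% to 38.3%). That was inside the reference interval of podocytes and mesenchymal cells on day 4 and in replicate 1 of day 7, and above it in replicate 2 of day 7. In endothelial cells with 0 macrophage UMIs, 24 and 131 on day 7, the class II level was 430 and 558 CPM against 775 and 638 in all endothelial cells.

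The 3 classes were also compared within each library. Immune cells were above tubular cells for 7 of 7 genes in 10 of 10 libraries, with mean differences of log2(CPM + 10) from 1.86 ± 0.62 (SD, n = 10) for Ciita to 6.28 ± 2.31 for H2-Aa. They were above endothelial cells likewise, from 1.88 ± 0.65 for Ciita to 6.57 ± 1.996 for Cd74. Each of these 14 tests had p = 0.00195 (exact two-sided sign-flip permutation test, the smallest it can give). Adjusted over all genes with at least 10 UMIs in both classes together, the exact permutation p was 0.00751 against tubular and 0.0114 against endothelial cells. Of all genes so tested, 14% of 19542 were higher in immune than in tubular cells and 11.5% of 14438 higher than in endothelial cells. Endothelial cells were below tubular cells for Cd74, by a mean of 1.08 ± 0.57, H2-DMa, by 0.60 ± 0.55, and H2-DMb1, by 0.80 ± 0.75, in 10 of 10 libraries each, and for H2-Ab1, by 0.89 ± 0.70, in 9 of 10 (exact permutation p adjusted over all genes 0.00808 and, for H2-Ab1, 0.0123), where 28.8% of 19210 genes were lower. H2-Aa, H2-Eb1 and Ciita did not pass. Endothelial cells had 0 UMIs of Cd74, H2-DMa and H2-DMb1 in the control and in replicate 2 of day 14. H2-DMa and H2-DMb1 had 0 in some other libraries too. At those depths the tubular level could also have given 0 UMIs. The count of 10 of 10 and the p-values of these 3 genes thus rest in part on signs set by depth. A CPM value is a share of the class's RNA, so it does not count molecules per cell.

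Whether the change from control to day 7 differed between classes was tested as an interaction, over sums of both classes. It was larger in tubular than in immune cells for 6 of 7 genes, where 2.50% of 15417 genes were called so, with Ciita the exception (log2 difference 2.80 ± 1.31). It was larger in endothelial than in immune cells for 4 of 7, where 0.613% of 7014 were: H2-Aa, H2-Ab1, H2-Eb1 and Cd74. That model had a term for each library. A limma model on the difference of log2(CPM + 10) within each library, added after the data were seen, called 0 of 7 in both, with the smallest adjusted p at 0.0972 for H2-Eb1, tubular against immune.

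Other genes of the class II pathway were counted from lists chosen for their roles. In tubular cells, 7 of the 9 interferon-γ pathway genes tested rose from control to day 7 and 0 fell, where 18.2% of all genes rose, with a median log2 change of 1.98. Gbp2, an interferon-induced GTPase, rose by 6.64 ± 0.53, from 0.56 CPM in the control to 79.7 and 128. Irf8 rose by 3.02 ± 0.42, the transcription factor Irf1 by 2.82 ± 0.28 and Socs1, a feedback inhibitor of cytokine signalling, by 2.64 ± 0.73. At its control level Gbp2 would not have passed the filter on low counts, so its calls are no support. The macrophage transcripts rose in the same tubular sums, from 0.47 CPM to 713 and 183, and a part from macrophage RNA was not tested. From day 7 to day 14, 5 of the 9 fell and 0 rose, where 23.6% of all genes fell, Gbp2 by 6.41 ± 0.39. With library totals 8 of the 9 rose in the first comparison, as did 8169 of all 15627 genes, and 9 of the 9 fell in the second, as did 8853. Of the 7 promoter factors, 1 rose by day 7 and 0 fell, a share near the 18.2% of all genes: Rfx5, the DNA-binding subunit of RFX, by 1.15 ± 0.30. It was at 4.08 CPM in the control and at 18.3 and 15.7 on day 7. From day 7 to day 14, 4 of the 7 fell, Rfx5 by 1.24 ± 0.24, and 1 rose, Rfxank, by 0.51 ± 0.18. With plain library totals in place of TMM, Rfx5 had 2.04 and -2.05 in these comparisons, Rfxank had -0.30 in the second, and 5 of the 7 factors rose by day 7, as did 8169 of all 15627 genes. Of the other class II chains, H2-DMb2 rose by 5.24 ± 0.43, from 0.89 to 65.0 and 60.8 CPM. At that control level H2-DMb2 would not have passed the filter on low counts, so its call is no support. H2-Eb2 had 0 UMIs in the control and 4 and 7 on day 7, and it passed the filter on low counts through the days where it is high, so its call is no support.

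Among genes of antigen processing in tubular cells, 2 of 4 rose by day 7, where 18.2% of all genes rose, and 1 fell, as did 3088 of 15627. Ctss, the protease that trims the invariant chain, rose by 6.86 ± 0.78, from 0.42 CPM to 144 and 47.9. The macrophage transcripts were at 713 and 183 CPM in the same 2 libraries. At its control level Ctss would not have passed the filter on low counts, so its call is no support. Ctsl rose by 2.25 ± 0.29, Lgmn, the protease legumain, fell by 0.66 ± 0.22 with TMM scaling but had 0.23 with library totals, and Ifi30 had 0.33 ± 0.27. Of the ubiquitin ligases that remove class II from the surface, March8 fell by 1.05 ± 0.20 with TMM scaling, and with library totals it had -0.16 and did not pass. Its CPM was 52.8 in the control and 46.1 and 48.3 on day 7. March1 had 0.61 ± 0.71. Of the 6 co-stimulatory and checkpoint ligands only 3 passed the filter on low counts, Cd40 and Cd274 through the days where they are high, so the number of calls is no support. Cd40 rose by 5.60 ± 0.84, from 4 UMIs (0.19 CPM) to 10.8 and 23.0 CPM, and Cd274 (PD-L1) by 4.06 ± 0.70, from 3 UMIs to 5.55 and 3.91 CPM. Cd80, Cd86 and Pdcd1lg2 had too few counts in tubular cells for the test.

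In immune cells 4 of the 4 antigen processing genes rose from control to day 7, where 4.73% of all genes were called in either direction. Of the 9 interferon-γ pathway genes 0 passed, which is near that share. Ctsl rose by 3.85 ± 0.53, from 79.6 CPM to 1812 and 1021, Ifi30 by 2.40 ± 0.68, Ctss by 1.96 ± 0.45 and Lgmn by 1.70 ± 0.44. Of the other chains, 0 of 3 passed, with H2-DMb2 at 1.10 ± 0.63. The 2 promoter factors, the 2 ubiquitin ligases and the 2 co-stimulatory ligands tested did not pass either. In endothelial cells 0 of the 8 interferon-γ pathway genes tested passed by day 7, where 1.63% of all genes rose. Ctss had 0 UMIs in the control and 18 and 32 on day 7, and it too passed the filter on low counts through the injured days, so its call is no support. Ifng itself was seen in few cells: 7 UMIs in the control, 20, 15 and 11 on days 1, 2 and 4, 12 and 48 on day 7 and 0 to 5 on days 11 and 14. The immune class held 5 of the 7 in the control, 8 of 20, 11 of 15 and 8 of 11 on days 1, 2 and 4, and 5 of 12 and 41 of 48 on day 7.

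The genes most alike to the mean of H2-Aa, H2-Ab1, H2-Eb1 and Cd74 were sought over the 30 sums of 3 classes and 10 libraries, by Pearson's r of log2(CPM + 10). Among 6899 genes, the highest outside the members were C1qb (r = 0.958), H2-DMb2 (0.954), Ctsc, Lyz2, Ctss, C1qc, Efhd2 and Rgs1, and H2-DMa (0.978) and H2-DMb1 (0.967) ranked 5 and 6 behind the 4 genes themselves. These points share the contrast between immune and other cells. Over the 10 immune sums alone they were Herpud1 (r = 0.930), Junb, Slamf8, Zmynd15, Fos, H2-Eb2, Pfdn5 and Rps28, and Ciita ranked 133 of 5938 genes, with r = 0.665. Cell numbers, depth and make-up of the class vary over these points, so the correlations are a description.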

How the data were processed

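The deposited tables, 1 for each library, hold whole-number counts with genes by symbol and cells by barcode. They are read as UMIs, which the labels do not state. Per the labels' protocols the suspensions went through Drop-seq with PCR amplification and a modified Nextera XT preparation of 3′ ends. The submitters' processing notes name Bowtie2 2.2.7 and the build mm10. Annotation, filters and strand of counting are not given in the sources used here. The members, gene lists and tests were chosen with earlier results of these data known.

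Barcodes under 500 UMIs, under 500 genes or over 50% mitochondrial UMIs were removed. On day 11, where alone the tables reach down to 300 genes, 5362 and 5424 barcodes fell under the gene limit. The libraries held 7091848 to 31632205 UMIs. A cell entered a class with at least 3 UMIs from at least 2 genes of its panel and at most 1 UMI of the immune, endothelial or tubular panel of another class (for immune cells, at most 25% of their own). Podocytes and mesenchymal cells were gated likewise against the immune and endothelial panels. Cells in several classes were left out. Scrublet (scanpy 1.11.5) marked at most 6 cells a library, so leaving out the highest 5% of scores was an alternative. Immune types needed 2 UMIs from 2 genes of their panel and no other type, except that C1q took precedence over monocyte. The tubular segment was the one with most marker UMIs, at least 2 and more than any other.

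Counts were summed per library and class and fitted with edgeR 4.0.16 (R 4.3.3): filterByExpr, TMM, 1 term per group over all 10 libraries, 3 residual degrees of freedom, quasi-likelihood F test, Benjamini-Hochberg at 0.05. SE is the log2 change divided by the square root of F. No test compared days 1, 2 or 4 with another day. Classes were compared within all 10 libraries by exact sign-flip tests on log2(CPM + 10), adjusted over all genes, an adjustment added after the data were seen. Named genes were the 7 members, up to 4 of each pathway list by size of change in tubular and immune sums, and the 8 most alike genes. The scripts were tested on simulated data. Alternatives included DESeq2 1.42.0, limma 3.58.1, other scalings, filters, gates and left-out libraries. Promoter windows are RefSeq's, build GRCm38.p6; 4 of the 7 members had one.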

Additional observations from a re-analysis of the deposited data

Results flagged for a closer look

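The change from control to day 7 differed between classes in an edgeR interaction test for 10 results. Tubular minus immune, the log2 differences were 6.29 for H2-Aa, 5.74 for H2-Ab1, 6.39 for H2-Eb1, 6.56 for Cd74, 4.61 for H2-DMa and 2.49 for H2-DMb1. Endothelial minus immune, they were 5.52 for H2-Aa, 6.11 for H2-Ab1, 2.995 for H2-Eb1 and 9.15 for Cd74. That of Cd74 rests on 0 UMIs in the endothelial control and so is no measure of size. Those of H2-Aa, H2-Ab1 and H2-Eb1 rest on 1, 1 and 4 UMIs there, so their size is poorly known. The limma model on differences within libraries gave 4.00, 4.41, 3.71, 4.79, 1.25 and 0.82 for the first 6, with adjusted p from 0.0972 to 0.536. It gave 3.84, 4.24, 2.52 and 4.30 for the other 4, with adjusted p from 0.148 to 0.452. Every sign was the same in both models for these 10, and none passed in limma.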

How the results depend on the processing

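All 7 members were called in tubular cells, higher on day 7 than in the control and lower on day 14 than on day 7, under each alternative tried and without each replicate in turn. The larger moves in counts of called members were as follows. On day 14 against control, 5 in all cells and 6 in tubular cells were called with no filter, against 3 and 4, and 2 in all cells with the mitochondrial limit at 25%, where H2-DMb1 was lost (adjusted p = 0.0531). With DESeq2, 1 and 1 were called in endothelial cells in the first 2 comparisons, and with 0 UMIs of other panels 0 on day 14 against day 7, where 0 macrophage UMIs left 3, without H2-Aa. Interactions gave 0 and 0 with limma and, endothelial, 2 with DESeq2 and 3 with 0 UMIs of other panels, where H2-Eb1 was lost (adjusted p = 0.0823). With that setting 17 of the class differences passed, against 18. With only the 2 groups fitted, H2-Aa was also called in all cells on day 14 against control (adjusted p = 0.0178). Without 1 replicate in turn the counts ranged from 0 to 3 in immune cells on day 14 against day 7 and from 0 to 1 in endothelial cells on day 14 against control. Shares at 1000 UMIs were 82.5% in immune, 47.6% in endothelial and 52.1% in tubular cells on day 7 and 1.27% in tubular control cells. With 0 UMIs of other panels they were 40.2% in endothelial cells on day 7 and 0.564% in tubular control cells, and with 0 macrophage UMIs 30.4% in endothelial cells on day 7.

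No value that passed the test with all libraries changed sign. In immune cells, day 7 against control, totals gave 0.092 (H2-Aa), 0.019 (H2-Ab1) and 0.24 (Cd74), no filter 0.11, 0.035 and 0.25, only the 2 groups fitted 0.027 (H2-Aa) and 0.16 (Cd74), a gate minimum of 2 UMIs 0.085 (Cd74), and 0 UMIs of other panels 0.012 (Cd74) and -0.24 (H2-DMb1). Day 14 against day 7, H2-DMa had -0.038 with totals and -0.18 with no filter, and a gate minimum of 5 UMIs gave 0.041 (Ciita) and 0.031 (H2-DMb1). Day 14 against control, 0 UMIs of other panels gave -0.38 (H2-DMb1). In endothelial cells on day 14 against control, H2-Eb1 had 1.35 with 0 UMIs of other panels and 0.33 without the highest 5% of Scrublet scores. The Ciita interaction was -0.025 with limma (tubular) and -0.34 and -0.55 (endothelial) with 0 UMIs of other panels and 0 macrophage UMIs. The cause was not tested.
Without 1 replicate in turn, the log2 values of members whose sign turned ranged as follows. For immune cells, day 7 against control: H2-Aa -1.03 to 0.31, H2-Ab1 -0.91 to 0.15, Cd74 -0.68 to 0.36, H2-Eb1 -0.57 to 1.09, H2-DMa -0.18 to 0.81 and H2-DMb1 -0.16 to 0.76. For immune cells, day 14 against day 7: H2-Eb1 -0.20 to 1.66, H2-DMa -0.31 to 0.67, Cd74 -0.87 to 0.26, Ciita -0.41 to 0.25 and H2-DMb1 -0.55 to 0.49. For immune cells, day 14 against control: H2-Aa -0.10 to 0.79, Ciita -0.088 to 0.58 and H2-DMb1 -0.19 to 0.69. For endothelial cells, day 14 against control: H2-Aa -2.54 to 3.98 and H2-Eb1 -0.25 to 0.055. For the interaction endothelial minus immune, day 7 against control: Ciita -0.61 to 4.51.

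Counts of all called genes are given with their range over every alternative and left-out replicate. In all cells, day 14 against control, it was 1474 (358 to 3722). In immune cells they were day 7 against control with 245 (93 to 305), day 14 against day 7 with 216 (60 to 296) and day 14 against control with 24 (7 to 64). For endothelial cells they were day 7 against control with 228 (20 to 252), day 14 against day 7 with 272 (52 to 299) and day 14 against control with 180 (9 to 269). For tubular cells they were day 7 against control with 5939 (4422 to 9216) and day 14 against control with 884 (127 to 3347). For the interactions they were, tubular minus immune, 881 (241 to 1025). Endothelial minus immune, it was 95 (6 to 158).
The replicate numbers did not pair the libraries (correlations of deviations from -0.0531 to 0.0638), and the replicate block changed the count of called members only in all cells on day 14 against control, to 4. The share of called genes that were higher was 48.0%, 49.4% and 43.4% in tubular cells with TMM and 88.6%, 14.4% and 58.9% with totals, in the order of the 3 comparisons. It went from 48.5%, 50.8% and 56.0% to 84.3%, 15.9% and 41.1% in all cells. In immune cells the first and the third went from 40.8% and 29.2% to 62.3% and 50%, and in endothelial cells the first 2 from 43.9% and 52.2% to 63.0% and 33.8%. A single control library, few immune and endothelial cells in it, and unknown animals limit the tests.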

Other observations

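The endothelial cells of the single library of day 2 were high in a pair of interferon-response transcripts while the class II genes were still low in tubular cells. Gbp2 in endothelial cells was at 886 CPM on day 2, against 56.8 in the control. Cd274 in endothelial cells had 86 UMIs on day 2 (270 CPM) and at most 5 in any other library. Tubular Cd74 was at 61.2 CPM in that library and at 447 on day 4. With 1 library there is no replicate check. The endothelial gate set no limit on mesenchymal or podocyte markers. In the endothelial sum of day 2 the mesenchymal panel was at 1920 CPM, against 208 in the control, and the podocyte panel at 553 against 63.9. A part of these cells in the pair was not tested.

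The make-up of the class II signal varied between libraries. In immune cells Cd74 held 14.5% and 14.4% of the UMIs of the 7 genes in the 2 libraries of day 14 and 22.9% to 32.7% in the other 8. In tubular cells H2-Ab1 held 50.04% in replicate 1 of day 14 and 24.8% to 38.4% in the other libraries, replicate 2 of day 14 among them. H2-DMb1 held 1.91% to 2.85% on days 4 and 7 and 4.15% to 14.4% in the other libraries. The barcodes of day 11 with under 500 genes or UMIs, which entered no comparison, had class II levels of 1371 and 1386 CPM, against 899 and 737 CPM in the cells kept.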
